A study of Homo sapiens with 6 samples.

Results

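The 78 genes described here encode the mitochondrial ribosomal proteins, and they are every entry of the deposited gene table whose symbol has the form MRPL or MRPS, a number and at most a closing A, B or C. The table lists 60664 genes, and all 78 members passed the filter on low values. The 6 RNA libraries came from SW480, a cell line established from a human colorectal adenocarcinoma, whose genotype is labelled wild type. There were 3 libraries from cells given Amuc_0904 and 3 from cells given buffer, and nothing else separates the groups in the labels. Amuc_0904 is written like a gene identifier of Akkermansia muciniphila, a bacterium of the gut mucus layer, and the labels name no dose, duration or preparation. The labels also do not say whether replicates were separate cultures, so each p-value measures only the spread between the libraries as labelled.

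Mitochondria translate the few proteins that their own genome encodes, all of them parts of the respiratory chain and the ATP synthase, on a ribosome of their own. The rRNAs of that ribosome come from mitochondrial DNA, whereas every one of its proteins is encoded in the nucleus, made in the cytosol and imported. Some of these proteins have a counterpart in bacterial ribosomes, while others are found only in mitochondria. Of the members, 51 belong to the large subunit, which joins amino acids, and 26 to the small subunit, which reads the mRNA. The proteins encoded by MRPS30 and MRPS18A are placed in the large subunit despite their symbols, and the product of MRPS36 is now regarded as a component of the oxoglutarate dehydrogenase complex instead.

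The values are in TPM, each gene's share of its library after scaling by transcript length, so levels can be compared between genes. Depth is unknown, because TPM keeps no read numbers. Between 14244 and 14586 genes per library had at least 1 TPM. The labelled cell type was checked with 7 genes of colorectal epithelium, of which 5 had at least 1 TPM in every library, while VIL1 and CDH17 did not. Their summed level was 7088 to 7377 TPM in Amuc_0904 libraries and 7900 to 8142 TPM in buffer libraries, and its part in the results below was not tested. Of the genes of other cell types, 4 leukocyte genes summed to 2.97 to 3.58 TPM with Amuc_0904 and 1.62 to 2.19 TPM with buffer, 3 fibroblast genes to 1.28 to 1.90 TPM with Amuc_0904 and 1.68 to 3.16 TPM with buffer, and 3 endothelial genes to at most 0.54 TPM with Amuc_0904 and 0.80 TPM with buffer. At least 1 TPM in every library was reached by 1 leukocyte gene, 1 fibroblast gene and 0 endothelial genes, and the leukocyte gene PTPRC and the fibroblast gene DCN were listed at 0 throughout.

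As a sum, the mitoribosomal protein transcripts took up overlapping shares of the libraries in both groups. The 78 members summed to 9454, 9285 and 8633 TPM in Amuc_0904 libraries, against 8804, 8560 and 9093 TPM in buffer libraries. These groups overlapped, and Amuc_0904 replicate 3 lay below 2 of the buffer libraries. The group means were 9124 ± 433.5 TPM with Amuc_0904 and 8819 ± 266.5 TPM with buffer (SD, n = 3 each), a ratio of 1.03. The members held 0.867% to 0.948% of a library's TPM with Amuc_0904 and 0.859% to 0.913% with buffer. The sum of large subunit members was 1.87 ± 0.0465 times that of small subunit members in Amuc_0904 libraries and 1.85 ± 0.0255 times in buffer libraries. The ratio of these sums thus differed between the groups by less than its spread. It sets 51 genes against 26, and it leaves out mitoribosomal proteins with other symbols, such as DAP3 and AURKAIP1 of the small subunit. In bulk RNA such sums do not tell a change in RNA per cell from a change in the cells present.

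Although they serve a single particle, the members differed 34.7-fold in level. Their mean TPM over the 6 libraries was 85.0 at the median, with a lowest value of 15.0 for MRPL50 and a highest of 521 for MRPS6. Levels over 200 TPM were seen for 9 members, and levels under 30 TPM for 7. The coefficient of variation between replicates was 7.38% at the median of the members in Amuc_0904 libraries and 5.20% in buffer libraries.

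MRPS6, a small subunit protein with a bacterial counterpart, was listed at 489, 487 and 541 TPM in Amuc_0904 libraries and at 544, 509 and 555 TPM in buffer libraries. MRPS24, which lies at the mRNA entrance of the small subunit, had 414, 437 and 333 TPM with Amuc_0904 and 359, 401 and 450 TPM with buffer. The groups overlapped for both genes. MRPL20, a large subunit protein with a bacterial counterpart, had 361, 342 and 311 TPM with Amuc_0904, against 365, 332 and 348 TPM with buffer. The mitochondria-specific MRPL51 had 350, 341 and 325 TPM with Amuc_0904 and 338, 302 and 326 TPM with buffer. None of these 4 most abundant members passed the test described next, with limma adjusted p between 0.494 and 0.893. In GENCODE 29 on GRCh38, MRPS6 (chromosome 21, 34073224 to 34143034) encloses or overlaps 3 other genes including SLC5A3, and MRPS24 overlaps a read-through gene on its own strand, so their levels may hold reads of a neighbour.

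The comparison of Amuc_0904 with buffer asked which transcripts differ between treated and untreated cells. Each gene with at least 1 TPM in at least 3 libraries, 14421 in all, was tested with limma on log2(TPM + 1), and p-values were adjusted over all of them by the Benjamini-Hochberg method. No mitoribosomal protein gene passed an adjusted p of 0.05, whereas 197 of all tested genes (1.37%) did, 53 of them higher (0.368%) and 144 lower (0.999%) in Amuc_0904 libraries. The lowest limma adjusted p among the members was 0.0577, for MRPS28, followed by 0.132. At an unadjusted p under 0.05 there were 15 members (19.2%), a share close to the 20.8% of all tested genes.

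The direction of the small differences was uneven. Of the 78 members 60 had a log2 fold change above 0 (76.9%), against 37.5% of all tested genes, and 18 lay below 0. The median log2 fold change was 0.07 over the members and -0.06 over all tested genes, on the log2(TPM + 1) scale. Members with an unadjusted p under 0.05 were higher in 14 cases, where 4.49% of all tested genes were, and lower in 1, where 16.3% of all tested genes were. All 3 Amuc_0904 libraries lay above all 3 buffer libraries for 10 members (background 7.00%) and below them for 0 members (background 20.1%). Transcripts of 1 assembly are not independent of each other, and no test over the set was made. Leaving out a library moved some of these numbers: the 14 members became 4 without Amuc_0904 replicate 1 and 3 without buffer replicate 2. In these fits 3.44% and 3.29% of all tested genes were higher at an unadjusted p under 0.05. Without buffer replicate 2 the members' median was 0.04. With each library centred on its median, 69 members were above 0, against 53.6% of all tested genes.

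**Figure D1:**
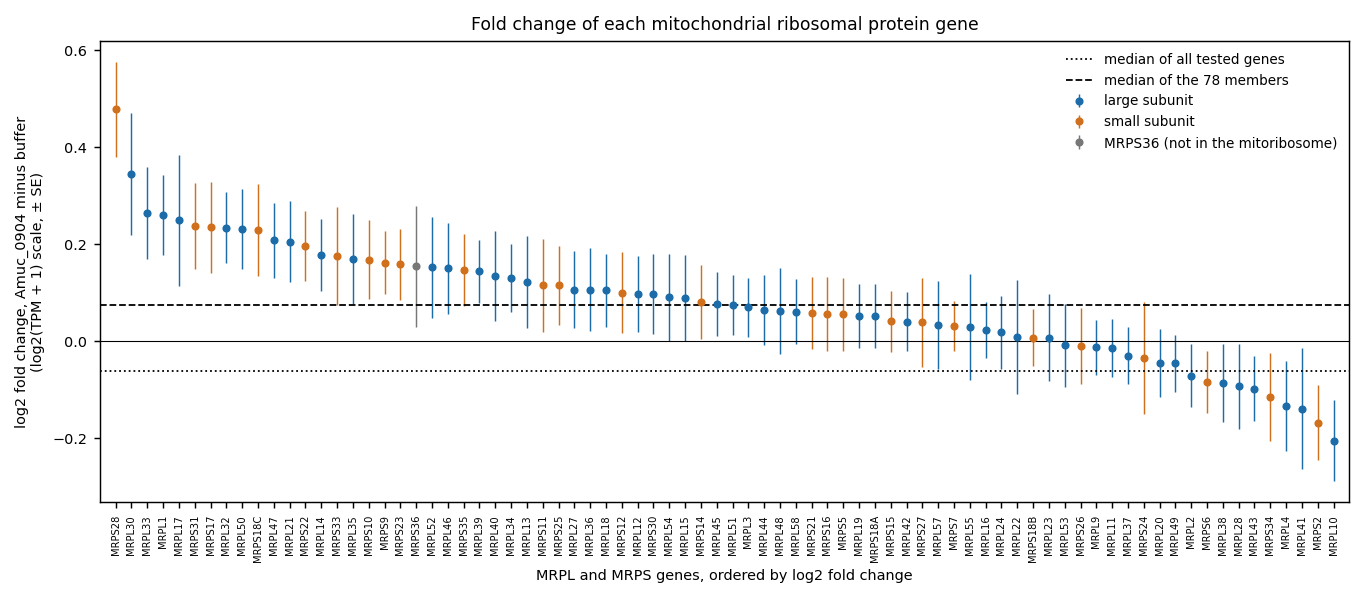
Log2 fold change (Amuc_0904 minus buffer, log2(TPM + 1) scale, points with SE) of the 78 MRPL and MRPS genes, ordered from highest to lowest and coloured by ribosomal subunit. Values run from 0.48 for MRPS28 to -0.20 for MRPL10, 60 lie above 0, and the members' median (dashed, 0.07) lies above that of all tested genes (dotted, -0.06).

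Among large subunit members 38 of 51 were above 0, with a median log2 fold change of 0.07, and among small subunit members 21 of 26, with a median of 0.09. Members with a bacterial counterpart (36 of 46 above 0, median 0.09) and mitochondria-specific members (23 of 31 above 0, median 0.06) both lay mostly above 0. At an unadjusted p under 0.05, 11 of the 46 members with a bacterial counterpart were higher and 1 lower. Of the 31 mitochondria-specific members 3 were higher and 0 lower. Among all tested genes 37.5% were above 0, and at that p 4.49% were higher and 16.3% lower. Whether these groups of members differ was not tested. MRPS36 had 23.5, 23.9 and 21.4 TPM in Amuc_0904 libraries and 20.4, 17.1 and 24.5 TPM in buffer libraries, and these overlapped.

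Within the large subunit the highest fold changes belonged to MRPL30, MRPL33, MRPL1 and MRPL17, all with a bacterial counterpart. MRPL1, a component of the mobile stalk by which spent tRNA leaves, had 38.3, 34.8 and 39.1 TPM in Amuc_0904 libraries and 32.8, 28.4 and 32.1 TPM in buffer libraries. Every Amuc_0904 value exceeded every buffer value, and the ratio of means was 1.203 (limma log2 fold change 0.26, SE 0.08, 95% interval 0.07 to 0.45, adjusted p = 0.132). MRPL33 had 254, 232 and 280.0 TPM with Amuc_0904, against 238, 194 and 206 TPM with buffer (limma adjusted p = 0.169). MRPL30 had 27.8, 21.5 and 30.2 TPM with Amuc_0904 and 22.4, 19.9 and 19.3 TPM with buffer (limma log2 fold change 0.34, SE 0.13, adjusted p = 0.176). For MRPL33 and MRPL30 alike, Amuc_0904 replicate 2 lay below buffer replicate 1, so the groups overlapped. MRPL17, at the peptide exit tunnel, had 64.0, 60.0 and 46.5 TPM with Amuc_0904, against 45.6, 42.1 and 54.9 TPM with buffer, and its 95% interval of the log2 fold change, -0.06 to 0.56, included 0.

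The lowest large subunit members were MRPL10, MRPL41 and MRPL4. MRPL10, which anchors the flexible stalk that recruits translation factors, had 52.2, 55.8 and 50.4 TPM in Amuc_0904 libraries and 60.8, 67.4 and 55.3 TPM in buffer libraries. The groups overlapped only through Amuc_0904 replicate 2 and buffer replicate 3 (limma log2 fold change -0.20, SE 0.08, adjusted p = 0.217). Its stalk partner MRPL12 pointed the other way, with 335, 334 and 278 TPM with Amuc_0904 and 286, 297 and 298 TPM with buffer (log2 fold change 0.10, limma adjusted p = 0.527). The mitochondria-specific MRPL41 had 243, 250.4 and 182 TPM with Amuc_0904, against 229, 238 and 272 TPM with buffer. MRPL4 had 135, 143 and 113 TPM with Amuc_0904 and 135, 143 and 150 TPM with buffer. In both genes the lower mean came from Amuc_0904 replicate 3, the lowest of all 6 libraries, and without it the log2 fold change was 0.006 for MRPL41 and -0.035 for MRPL4.

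By place in the large subunit, 8 proteins were listed around the peptide exit tunnel (MRPL17, MRPL22, MRPL23, MRPL24, MRPL39, MRPL44, MRPL45 and MRPL47). All 8 had log2 fold changes above 0, between 0.01 and 0.25, against 37.5% of all tested genes above 0. The list was not complete, and MRPL4, which also lines the tunnel but was left out of it, had a log2 fold change of -0.13. MRPL45, which ties the ribosome to the inner membrane, had a log2 fold change of 0.08 (SE 0.07). Of the 4 proteins near the peptidyl transferase centre 3 were above 0, and MRPL2 had a log2 fold change of -0.07. Of 7 proteins of the central protuberance 6 were above 0, among them MRPL58, a peptidyl-tRNA hydrolase that frees stalled ribosomes, with 142, 137 and 126 TPM in Amuc_0904 libraries and 134, 124 and 129 TPM in buffer libraries. None of these proteins passed, and the lowest limma adjusted p in these places was 0.179, for MRPL47.

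In the small subunit MRPS28, the counterpart of a bacterial protein that binds mRNA, had the largest difference of all members. It was listed at 39.4, 46.3 and 40.7 TPM in Amuc_0904 libraries and at 32.4, 31.2 and 26.4 TPM in buffer libraries. The lowest Amuc_0904 value lay above the highest buffer value, and the ratio of the means was 1.40. The limma log2 fold change was 0.48 (SE 0.10, 95% interval 0.25 to 0.70, adjusted p = 0.0577). It passed only when the filter was raised to 5 TPM, which left fewer genes to adjust over (adjusted p = 0.0352), and the adjusted p lay between 0.0501 and 0.205 under the other alternatives. MRPS28 overlaps 3 annotated genes, 2 of them on its own strand, and the strand protocol is not stated, so reads of these genes cannot be told apart from its own.

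At the other end of the small subunit, MRPS2 had 123, 132 and 110 TPM with Amuc_0904 and 131, 134 and 143 TPM with buffer, with overlap in a single pair of values (limma log2 fold change -0.17, SE 0.08, adjusted p = 0.263). The mitochondria-specific MRPS34 had 235, 240 and 189 TPM with Amuc_0904, against 231, 239 and 246 TPM with buffer. Here too Amuc_0904 replicate 3 alone stood below the buffer range. MRPS12, which sits at the decoding centre, had 171, 182 and 149 TPM with Amuc_0904 and 146, 157 and 164 TPM with buffer, without separation. Of the 10 mitochondria-specific proteins of this subunit 8 were above 0, with MRPS31 highest at a log2 fold change of 0.24 (limma adjusted p = 0.181).

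MRPS18A, MRPS18B and MRPS18C are paralogs whose products occupy 3 different places in the ribosome. MRPS18C had 97.2, 97.6 and 83.6 TPM in Amuc_0904 libraries and 83.2, 69.8 and 84.3 TPM in buffer libraries, a limma log2 fold change of 0.23 with a 95% interval of 0.01 to 0.45 (adjusted p = 0.216). MRPS18A had 59.2, 64.6 and 58.5 TPM with Amuc_0904 and 57.2, 57.6 and 60.8 TPM with buffer (log2 fold change 0.05, 95% interval -0.10 to 0.20). MRPS18B had 91.9, 91.8 and 90.3 TPM with Amuc_0904, against 88.9, 88.2 and 95.9 TPM with buffer (log2 fold change 0.01, 95% interval -0.13 to 0.14). The intervals of the 3 paralogs overlap, none passed, and the differences between them were not tested.

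**Figure D2:**
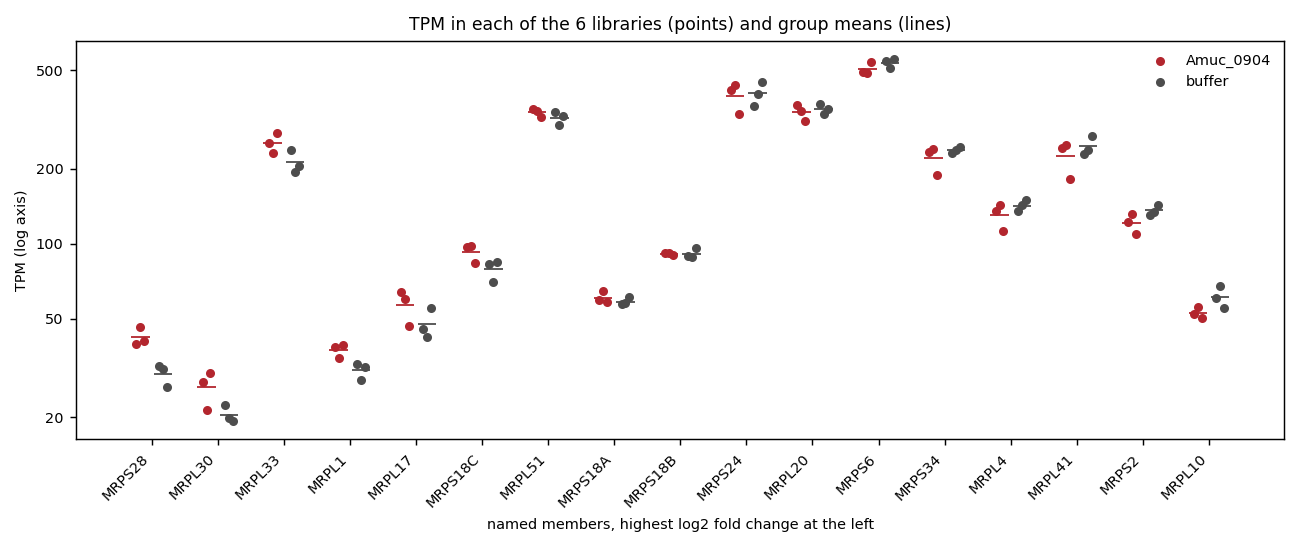
TPM on a log axis of 17 members in the Amuc_0904 libraries (red) and the buffer libraries (grey), with points for libraries and lines for group means, ordered by log2 fold change. MRPS28 and MRPL1 show no overlap between groups, while in MRPS34, MRPL4 and MRPL41 a single Amuc_0904 library lies low.

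The 10 members without overlap between groups were MRPS28, MRPL1, MRPS31, MRPL32, MRPL50, MRPL47, MRPL14, MRPS9, MRPS35 and MRPL39, named here because of these values. Their means were 1.11-fold to 1.40-fold higher in Amuc_0904 libraries. MRPL32, whose maturation by an inner membrane protease precedes ribosome assembly, had 146, 131 and 134 TPM with Amuc_0904 and 127, 110.2 and 113 TPM with buffer (limma log2 fold change 0.23, SE 0.07, adjusted p = 0.132). MRPL50, the least abundant member, had 15.96, 16.3 and 16.5 TPM with Amuc_0904 against 14.8, 13.0 and 13.4 TPM with buffer (limma adjusted p = 0.171). A ratio of means of at least 1.2 in either direction was reached by 4 members.

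The log2 fold changes varied with the GC content of the transcripts, and among the members with their level too. The longest annotated transcripts of the members ranged from 33.5% GC to 71.9% GC (median 47.7%, against 49.2% for all tested genes with a value). Across the 78 members the log2 fold change declined with GC content (Pearson r = -0.55, Spearman rho = -0.56), and it did so across all 14277 tested genes with a GC value (r = -0.35, rho = -0.43). Over the members the log2 fold change also declined with mean log2(TPM + 1) (Pearson r = -0.40, Spearman rho = -0.37). How level and GC content are related here was not tested. These are descriptions across genes that share the same 6 libraries, and genes are not independent replicates. Of the 39 members with lower GC content 37 were above 0, with a median of 0.15, while of the 39 with higher GC content 23 were above 0, with a median of 0.02. Of the 10 members without overlap between groups 9 had lower GC content, and the exception was MRPL14 at 55.5%.

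**Figure D3:**
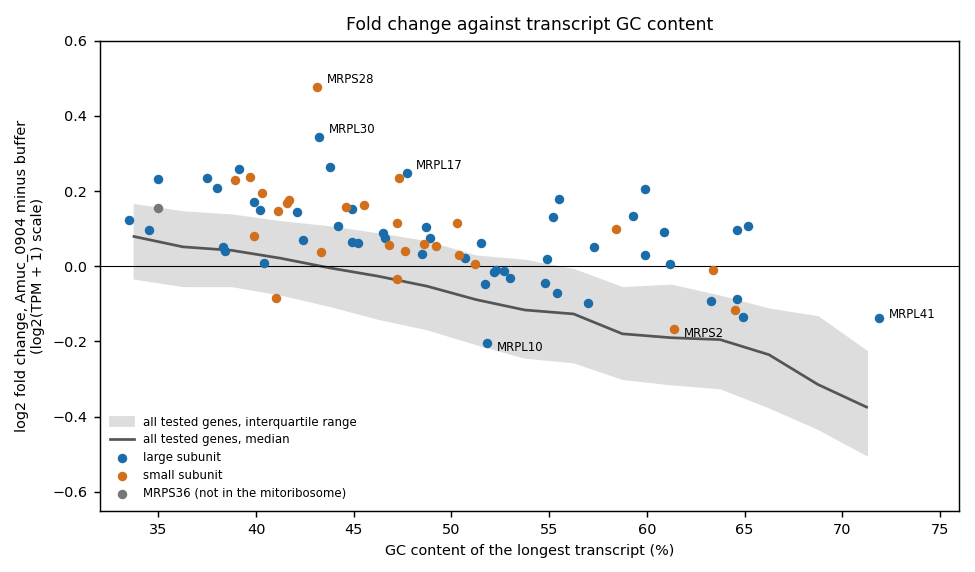
Log2 fold change (Amuc_0904 minus buffer) of each member against the GC content of its longest transcript, over the median and interquartile range of all tested genes in bins of GC content. Both decline with GC content (r = -0.55 over members), and most members lie above the median line of all genes.

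The libraries themselves differed in how expression depended on GC content. The slope of log2 expression, relative to the mean of the libraries and per 10 percentage points of GC, was -0.0417, 0.0021 and -0.1119 in Amuc_0904 replicates 1, 2 and 3, against 0.0045, 0.0931 and 0.0538 in buffer replicates 1, 2 and 3. Slopes were lower in every Amuc_0904 library than in every buffer library, so GC content and treatment cannot be told apart by these groups alone. Amuc_0904 replicate 3, with the lowest slope, was the lowest of the 6 libraries for 21 of the 39 members with higher GC content and for 4 of the 39 with lower GC content. Buffer replicate 2, with the highest slope, was the lowest for 27 of the members with lower GC content and 11 of those with higher GC content. The members with lower GC content lay above the buffer mean by a median of 0.19, 0.10 and 0.09 (log2) in the 3 Amuc_0904 libraries, against 0.06, -0.07 and 0.02 in the buffer libraries. Those with higher GC content lay at 0.06, 0.07 and -0.07 with Amuc_0904, against -0.02, -0.02 and 0.04 with buffer.

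**Figure D4:**
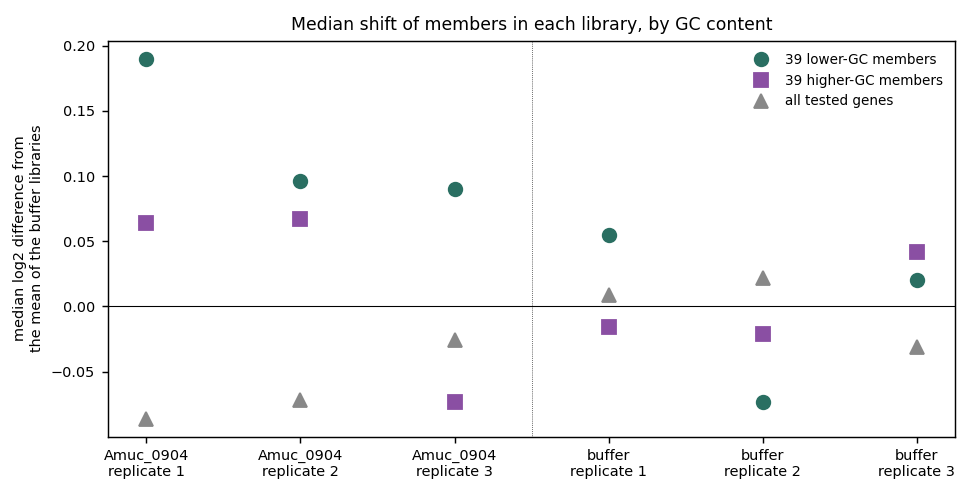
Median log2 difference from the mean of the buffer libraries in each library, for the 39 members with lower GC content (circles), the 39 with higher GC content (squares) and all tested genes (triangles). The members with lower GC content are highest in Amuc_0904 replicate 1 (0.19) and lowest in buffer replicate 2 (-0.07), and those with higher GC content are lowest in Amuc_0904 replicate 3 (-0.07).

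When the trend with GC content was removed from each library, 74 of the 78 members were above 0, against 48.2% of all tested genes with a GC value, and the exceptions were MRPL10 (-0.13), MRPS6 (-0.10), MRPS2 (-0.01) and MRPL22 (-0.01). The median was then 0.12 over the members and -0.01 over all genes, and 0.14 and 0.11 over the members with lower and with higher GC content. MRPS28 kept a log2 fold change of 0.48 (limma adjusted p = 0.0817), while MRPL41, MRPL4 and MRPS34 turned to 0.12, 0.05 and 0.07. No member passed in that fit either. With Amuc_0904 replicate 3 and buffer replicate 2 left out, the correlation with GC content over the members was weaker (r = -0.21). In that fit 61 members were above 0 and the median was 0.08. These libraries were picked after their slopes, the lowest and the highest, were seen, so a weaker correlation could be foreseen from the choice.

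Promoters were examined for letters they share, since nuclear respiratory factors, ETS factors such as GABP, and YY1 are known regulators of genes for mitochondrial proteins. RefSeq windows on GRCh38.p14, from 250 bases before to 50 bases after the start, were matched for 69 of the members and for 10248 tested genes, with the first listed start used for each gene and both strands searched. The ETS letters CCGGAAG were in the windows of 29 members (42.0%), against 19.9% of tested genes. The YY1 letters AGATGGC were in 21 member windows (30.4%), against 7.56% of tested genes. The NRF1 letters GCATGCGC were in 6 (8.70%, against 5.58%), the SP1 letters GGGCGG in 42 (60.9%, against 71.4%) and the E-box CACGTG in 6 (8.70%, against 10.3%). Members with and without the ETS letters had median log2 fold changes of 0.07 and 0.06, and with and without the YY1 letters 0.07 and 0.07. The medians with and without the letters were 0.19 and 0.06 for NRF1, 0.06 and 0.10 for SP1, and 0.04 and 0.07 for the E-box, and none of these differences was tested. A match is a run of letters and not a shown binding site.

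The 150 bases before the start are printed for some members with a matched window, taken from near either end of the order of fold changes. They show how base composition and motif letters are spread between these members. Capitals mark the letters of the 5 motifs on either strand, and each sequence runs 5′ to 3′ on the strand of the gene. Of the printed members, those with the highest fold changes were MRPL30 (chr2:99181034-99181183, plus strand), MRPL33 (chr2:27771569-27771718, plus strand), MRPL1 (chr4:77862680-77862829, plus strand) and MRPL17 (chr11:6683341-6683490, minus strand).
MRPL30: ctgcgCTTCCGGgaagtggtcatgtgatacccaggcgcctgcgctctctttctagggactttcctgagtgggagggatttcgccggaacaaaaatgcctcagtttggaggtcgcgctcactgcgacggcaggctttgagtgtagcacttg
MRPL33: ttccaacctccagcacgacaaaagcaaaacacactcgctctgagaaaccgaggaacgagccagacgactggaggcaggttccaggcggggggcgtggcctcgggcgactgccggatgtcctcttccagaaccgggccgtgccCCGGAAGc
MRPL1: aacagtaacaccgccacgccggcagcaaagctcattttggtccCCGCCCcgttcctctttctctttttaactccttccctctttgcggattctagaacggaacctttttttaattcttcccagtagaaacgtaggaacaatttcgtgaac
MRPL17: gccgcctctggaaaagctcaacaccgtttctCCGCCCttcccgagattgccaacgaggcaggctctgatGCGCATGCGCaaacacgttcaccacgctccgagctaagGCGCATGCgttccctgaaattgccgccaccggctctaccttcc

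Of the printed members, those with the lowest fold changes were MRPS34 (chr16:1773135-1773284, minus strand), MRPL4 (chr19:10251801-10251950, plus strand), MRPL41 (chr9:137551729-137551878, plus strand) and MRPS2 (chr9:135500532-135500681, plus strand).
MRPS34: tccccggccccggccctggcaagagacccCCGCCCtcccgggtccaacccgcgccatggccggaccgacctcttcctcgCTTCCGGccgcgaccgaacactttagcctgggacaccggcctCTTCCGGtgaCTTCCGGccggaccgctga
MRPL4: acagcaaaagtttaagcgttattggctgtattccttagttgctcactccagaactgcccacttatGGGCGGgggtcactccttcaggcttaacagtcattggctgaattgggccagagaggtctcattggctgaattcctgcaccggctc
MRPL41: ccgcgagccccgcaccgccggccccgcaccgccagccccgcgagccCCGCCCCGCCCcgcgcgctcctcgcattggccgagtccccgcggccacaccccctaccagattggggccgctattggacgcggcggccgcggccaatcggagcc
MRPS2: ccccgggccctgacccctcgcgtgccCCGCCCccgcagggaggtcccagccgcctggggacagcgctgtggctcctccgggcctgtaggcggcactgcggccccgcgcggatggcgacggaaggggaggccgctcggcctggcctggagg

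The printed stretches were 57.3%, 64.0%, 46.7% and 60.7% GC for MRPL30, MRPL33, MRPL1 and MRPL17, and 72.7%, 50.7%, 80.7% and 80.0% GC for MRPS34, MRPL4, MRPL41 and MRPS2. ETS letters began 145 bases before the start in MRPL30 and 8 bases before it in MRPL33, and 71, 29 and 19 bases before it in MRPS34. The MRPL17 stretch holds the NRF1 letters at 81, 79 and 43 bases before the start, of which the first pair overlap on opposite strands. In the printed stretches the ETS and SP1 letters occur among both the higher and the lower members. The NRF1 letters occur in MRPL17 alone, and the YY1 letters and the E-box in none. The members with the highest and the lowest fold change of all, MRPS28 and MRPL10, are not printed. The true ends of the order are therefore not compared here.

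Other genes of mitochondrial translation, nuclear and mitochondrially encoded, were followed through 6 lists. In limma 0 of these genes passed in either direction, so the counts at an unadjusted p under 0.05 are given with each list. Of all tested genes 37.5% were above 0, and at that p 4.49% were higher and 16.3% lower. Of 5 mitoribosomal proteins with other symbols 3 were above 0 (60.0%), with a median log2 fold change of 0.00. At that p 1 was higher and 0 lower. DAP3, a GTP-binding protein of the small subunit, had 102, 104 and 108 TPM in Amuc_0904 libraries and 95.3, 89.1 and 93.4 TPM in buffer libraries, without overlap (limma log2 fold change 0.17, SE 0.06, adjusted p = 0.146). AURKAIP1, also of the small subunit, had 251, 248 and 198 TPM with Amuc_0904 and 229, 233 and 250.2 TPM with buffer.

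Of 27 mitoribosome assembly factors 14 were above 0 (51.9%, against 37.5% of all tested genes), with a median of 0.00. At an unadjusted p under 0.05, 4 were higher and 3 lower, where 4.49% and 16.3% of all tested genes were. Among the 4 was GTPBP10, a GTPase of large subunit maturation named after its values were seen, with 31.6, 31.6 and 38.6 TPM with Amuc_0904 and 31.0, 20.7 and 25.7 TPM with buffer (limma log2 fold change 0.39, SE 0.14, adjusted p = 0.173). The most abundant, C1QBP, had 451, 433 and 433 TPM with Amuc_0904 and 466, 422 and 433 TPM with buffer, and MALSU1, a factor for the large subunit, averaged 158 ± 13.2 TPM with Amuc_0904 and 157 ± 7.19 TPM with buffer (SD, n = 3 each). Of 16 tested translation factors 12 were above 0, with a median of 0.07, and 1 was higher and 0 lower at an unadjusted p under 0.05. SLIRP, which stabilises mitochondrial mRNAs, had 760.1, 754 and 698 TPM with Amuc_0904 and 684, 647 and 671 TPM with buffer (limma log2 fold change 0.14, SE 0.06, adjusted p = 0.202). The elongation factor TUFM averaged 232.5 ± 4.54 TPM with Amuc_0904 and 235 ± 5.56 TPM with buffer.

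The next list holds 22 genes that load amino acids onto mitochondrial tRNAs. They are aminoacyl-tRNA synthetases except for QRSL1, GATB and GATC, which encode parts of an amidotransferase. Of these 22 genes 11 were above 0, with a median of 0.02. At an unadjusted p under 0.05, 0 were higher and 1 lower. The highest levels were those of KARS1 (log2 fold change 0.11, limma adjusted p = 0.280) and GARS1 (0.05, adjusted p = 0.802), which serve the cytosol as well as mitochondria. Of 13 tested regulators of mitochondrial transcription and biogenesis 8 were above 0 (61.5%), with a median of 0.04. At an unadjusted p under 0.05, 2 were higher and 0 lower. MYC had 186, 187 and 165 TPM with Amuc_0904 and 157, 158 and 148 TPM with buffer, without overlap (limma log2 fold change 0.21, SE 0.07, adjusted p = 0.133). TFAM, which packages and transcribes mitochondrial DNA, averaged 52.6 ± 2.72 TPM with Amuc_0904 and 47.5 ± 4.66 TPM with buffer (limma adjusted p = 0.366).

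The mitochondrially encoded transcripts, which include the rRNAs of the same ribosome, had 5 of 15 above 0 (33.3%, against 37.5% of all tested genes). Their median was -0.04. At an unadjusted p under 0.05, 1 was higher and 0 lower, where 4.49% and 16.3% of all tested genes were. MT-RNR1, the rRNA of the small subunit, had 3036, 3003 and 3287 TPM in Amuc_0904 libraries and 2825, 2519 and 2661 TPM in buffer libraries, without overlap (limma log2 fold change 0.22, SE 0.07, adjusted p = 0.120). MT-RNR2, the rRNA of the large subunit, had 3578, 3596 and 4616 TPM with Amuc_0904 and 3656, 3509 and 3490.2 TPM with buffer (limma log2 fold change 0.14, adjusted p = 0.478). Both rRNAs are named here after their values were seen. The entries with the highest mean TPM, a measure scaled by transcript length, were MT-ATP8 and MT-ND4L. Their log2 fold changes were 0.01 and -0.08 with standard errors of 0.17 and 0.11.

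A shift of like size was measured for the ribosomal proteins of the cytosol. Of 81 tested cytosolic ribosomal protein genes 72 were above 0 (88.9%, against 37.5% of all tested genes), with a median of 0.10. All 3 Amuc_0904 libraries lay above all buffer libraries for 27 (background 7.00%), and 0 passed in limma. At an unadjusted p under 0.05, 21 were higher and 0 lower, where 4.49% and 16.3% of all tested genes were. To represent complex I, 37 genes were taken by symbols that begin with NDUF, although NDUFA4 among them is now placed in complex IV. Of these 37 genes 21 were above 0 (56.8%), with a median of 0.01. In limma 0 of them passed, and 2 were higher and 0 lower at an unadjusted p under 0.05. After removal of the GC trend the medians were 0.12 for the mitoribosomal members, 0.17 for the cytosolic ribosomal proteins and 0.09 for the NDUF genes, beside -0.01 for all genes. These sets share the same libraries and were not tested against each other.

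Several features of these genes limit the values. Other annotated genes overlap 49 of the members, 23 of them on the member's own strand, and among the 29 members with no overlapping gene 25 were above 0, with a median of 0.09. At an unadjusted p under 0.05, 2 of these 29 were higher and 1 lower, against 12 higher and 0 lower of the 49 with an overlapping gene. Among all tested genes 37.5% were above 0, and at that p 4.49% were higher and 16.3% lower. Of the 10 members without overlap between the groups of libraries, 8 share their position with another gene and 2 do not. The members lie on 21 chromosomes. Processed copies of mitoribosomal protein genes are common, and the table lists 79 entries named as pseudogenes of 36 members. Of these copies 65 were listed at 0 throughout and 4 reached 1 TPM in some library, with a highest value of 5.34 TPM for MRPL45P2, so a share of reads may have been assigned between gene and copy.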

How the data were processed

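Per the labels, total RNA of SW480 cells was extracted with TRIzol and sequenced on an Illumina NovaSeq instrument. The authors deposited 1 gene table in TPM, quantified with RSEM per the series' design text. HISAT2, StringTie and edgeR stand in the submitters' processing notes too, with no version or role, as does a mouse build (GRCm38.p6), whereas the gene identifiers are human, so the annotation used is uncertain. Counts, and so depth, intervals from counts and detection floors, are not given. For the 14421 of 60664 genes that reached 1 TPM in 3 or more libraries, log2(TPM + 1) was fitted with limma (version 3.58.1, R 4.3.3) using trended empirical Bayes moderation. Tests were two-sided, with Benjamini-Hochberg adjustment over all tested genes and a threshold of 0.05. Log2 fold changes are Amuc_0904 minus buffer and understate changes at low TPM. Folds are ratios of mean TPM.

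The members and lists were chosen with earlier results of these data known. Members named by rule were the 5 highest and 5 lowest by log2 fold change, the 4 with the highest mean and the MRPS18 paralogs, and for each list the genes past the threshold or, with none, the 2 of highest mean. Others were named after their values were seen. Subunits, origins and places are textbook assignments.

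GC content, length and positions came from GENCODE 29 (longest transcript, 99.0% of tested genes). The GC and length trends were removed by loess with a span of 0.3. The workflow was tested on simulated data. Other alternatives were a pseudocount of 0.1, other filters, a replicate block, leaving out each library, median centring, quantile normalization, and removal of ribosomal protein genes and mitochondrially encoded genes. Replicate numbers are no pairing in the labels. Figures were drawn with matplotlib 3.10.9.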

Additional observations from a re-analysis of the deposited data

How the results depend on the processing

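No mitoribosomal member passed the threshold in limma, and neither did any gene of the pathway lists, under the alternatives run, except MRPS28 with a filter of 5 TPM (1 member called, adjusted p = 0.0352). The count of all genes called depended on the settings: 197 became 9 with no filter on low TPM, 432 with a filter of 5 TPM, 85 with median centring, 102 with quantile normalization, 117 with the GC trend removed, 114 with the length trend removed, and between 35 and 112 with a library left out. With Amuc_0904 replicate 3 and buffer replicate 2 left out together, an alternative chosen after seeing the data, it was 16. The members' median log2 fold change was 0.155 with median centring and between 0.043 and 0.094 with a library left out. Between 55 and 66 members were above 0 with a library left out, against 33.8% to 40.1% of all tested genes. Between 3 and 17 members were then higher at an unadjusted p under 0.05, against 3.29% to 5.34% of all tested genes. After GC removal 23 members were higher at that p, and the share of all tested genes was 8.77%, against 4.49% in the main fit. Among the 29 members that overlap no gene, also chosen after seeing the data, the counts above 0 and higher at that p were 25 and 2 in the main fit. They were 35 and 12 among the 49 members that overlap a gene, and the cause of this difference was not tested.

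With the replicate block 80 genes were called and 0 members. Same-numbered libraries deviated from their group means with correlations of -0.029, 0.075 and -0.094. With 3 libraries per group these values cannot show whether same-numbered libraries were handled together, and the labels state no pairing. The cause of the lower count was not tested.

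The sign of some small differences changed, and the cause was not tested. With the GC trend removed the log2 fold change was 0.065 for MRPS34, 0.052 for MRPL4, 0.125 for MRPL41, 0.002 for MRPS24, 0.056 for MRPL20, 0.179 for AURKAIP1, 0.066 for C1QBP, -0.009 for MALSU1, 0.108 for TUFM and -0.005 for MT-ATP8. With median centring it was 0.045 for MRPS24, 0.036 for MRPL20, 0.045 for AURKAIP1, 0.078 for C1QBP and 0.063 for TUFM. With quantile normalization it was 0.011 for C1QBP, 0.004 for TUFM and 0.000 for MT-ATP8. With ribosomal protein genes and mitochondrially encoded genes removed it was 0.024 for C1QBP and 0.009 for TUFM, and with the length trend removed 0.001 for C1QBP and 0.027 for TUFM. With Amuc_0904 replicate 3 and buffer replicate 2 both left out it was 0.082 for MRPS24, -0.007 for MRPS18B, 0.061 for AURKAIP1, 0.017 for TUFM, -0.041 for GARS1 and -0.173 for MT-ATP8. With each library left out in turn the ranges were -0.222 to 0.006 for MRPL41, -0.116 to 0.083 for MRPS24, -0.094 to 0.014 for MRPL20, -0.015 to 0.045 for MRPS18B, -0.095 to 0.074 for AURKAIP1, -0.032 to 0.039 for C1QBP, -0.033 to 0.078 for MALSU1, -0.030 to 0.002 for TUFM, -0.046 to 0.098 for GARS1 and -0.182 to 0.129 for MT-ATP8. The other members named by rule kept their sign under every alternative run. Since TPM keeps no read numbers, depth could not be weighed.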
